A study of Sus scrofa with 8 samples.

Results

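AMP-activated protein kinase (AMPK) is a complex of a catalytic alpha, a scaffolding beta and a nucleotide-binding gamma subunit, and the 7 genes that encode these subunits are described here in pig backfat. The members were the probe sets annotated with exactly 1 gene symbol out of PRKAA1, PRKAA2, PRKAB1, PRKAB2, PRKAG1, PRKAG2 and PRKAG3, which gave 9 probe sets out of 24123 on the array. Each gene had 1 probe set except PRKAA1 and PRKAG1, which had 2 each, called here the brighter and the dimmer by their mean signal.

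The study compared the subcutaneous fat of the back, taken at its middle, from 2 breeds of pig that were reared alike. The 4 KNP samples came from pigs of 7 months and the 4 YS samples from pigs of 6 months; the labels do not spell out KNP, and 1 of them gives YS as Yorkshire. Total RNA of each sample was labelled with biotin and hybridised to 1 Affymetrix GeneChip Porcine Genome Array. Sex is not given, breed and age cannot be told apart because every KNP sample was the older, and whether each sample was a different animal is not said, so the p-values cover only the variation among these 8 samples.

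AMPK senses the energy state of the cell. It is switched on when AMP and ADP bind the gamma subunit and the kinase LKB1 phosphorylates the alpha subunit, and it then slows processes that use ATP, such as the synthesis of fatty acids and cholesterol, and favours those that make it. The beta subunit holds the complex together and binds glycogen. In mammals the subunit encoded by PRKAG3 is best known from fast-twitch skeletal muscle, and in pigs variation in this gene is known for its effect on muscle glycogen and meat quality.

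Signals are the authors' linear intensities, scaled so that the mean of each array, trimmed by 2% at each end, is about 500. Array medians ran from 165 to 224 in KNP and from 158 to 263 in YS. Background was gauged from 23 control probe sets of bacterial, phage or plant targets with no labelled target or of the opposite strand. They were picked by name only, without a check against pig transcripts, and their 95th percentile on the array in question was used. This no-target level was 89.5, 115, 76.1 and 93.3 on KNP replicates 1 to 4, and 78.5, 40.6, 70.5 and 161 on YS replicates 1 to 4. The adipocyte genes with the brightest probe sets, FABP4, SCD and LPL, lay between 4103 and 96882 in KNP and between 19027 and 58048 in YS. KNP replicate 2 stood apart through skeletal muscle genes, whose 24 probe sets summed to 98970 there, against 1207 to 3110 on the other 3 KNP arrays and 1514 to 3075 in YS. KNP replicates 1 and 2 and YS replicate 4 stood apart through the 3'/5' difference, the mean log2 gap between the 3' and 5' probe sets of the actin, GAPDH and elongation factor controls, which widens when RNA is broken or copied only in part. It was 8.54, 5.88, 2.20 and 2.12 on KNP replicates 1 to 4 and 2.58, 3.17, 3.10 and 4.40 on YS replicates 1 to 4.

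Of the 9 AMPK probe sets, none passed the test between breeds. Means on the log2(signal + 16) scale were higher in KNP for 5, beside 49.6% of all probe sets, and lower for 4, beside 50.4%. Those with the smallest p were PRKAG3 and PRKAB2, both dim and both higher in KNP. Differences were tested with limma over the whole array, after the 25% of probe sets with the lowest mean had been left out, and p-values were adjusted over all 17999 that remained. Of these 0 (0% of all probe sets tested) passed an adjusted p of 0.05, and the adjusted p of each of the 8 AMPK probe sets among them was 0.99984. An unadjusted p under 0.05 was found for 2 of the 8 AMPK probe sets that passed the filter, beside 2.84% of all probe sets. Both lay higher in KNP, and 1.49% of all probe sets had such a p and lay higher in KNP. In the fit without the filter there were 2 of 9, beside 3.06% of all. Both again lay higher in KNP, and 1.53% of all probe sets had such a p and lay higher in KNP. The median difference, KNP minus YS, was 0.32 for the 9 AMPK probe sets and -0.0044 for all 23999 in that fit. With the filter, 4 of the 8 AMPK probe sets were higher in KNP and 4 lower, with a median of 0.13, beside -0.0010 for all 17999. The AMPK signals exceeded the no-target level in 29 of 36 cases in KNP and in 29 of 36 in YS. Of all probe sets, 60.2% to 74.1% exceeded it on the KNP arrays and 65.6% to 77.8% on the YS arrays. Fewer cells of a type and less RNA per cell cannot be told apart in such tissue samples.

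**Figure D1:**
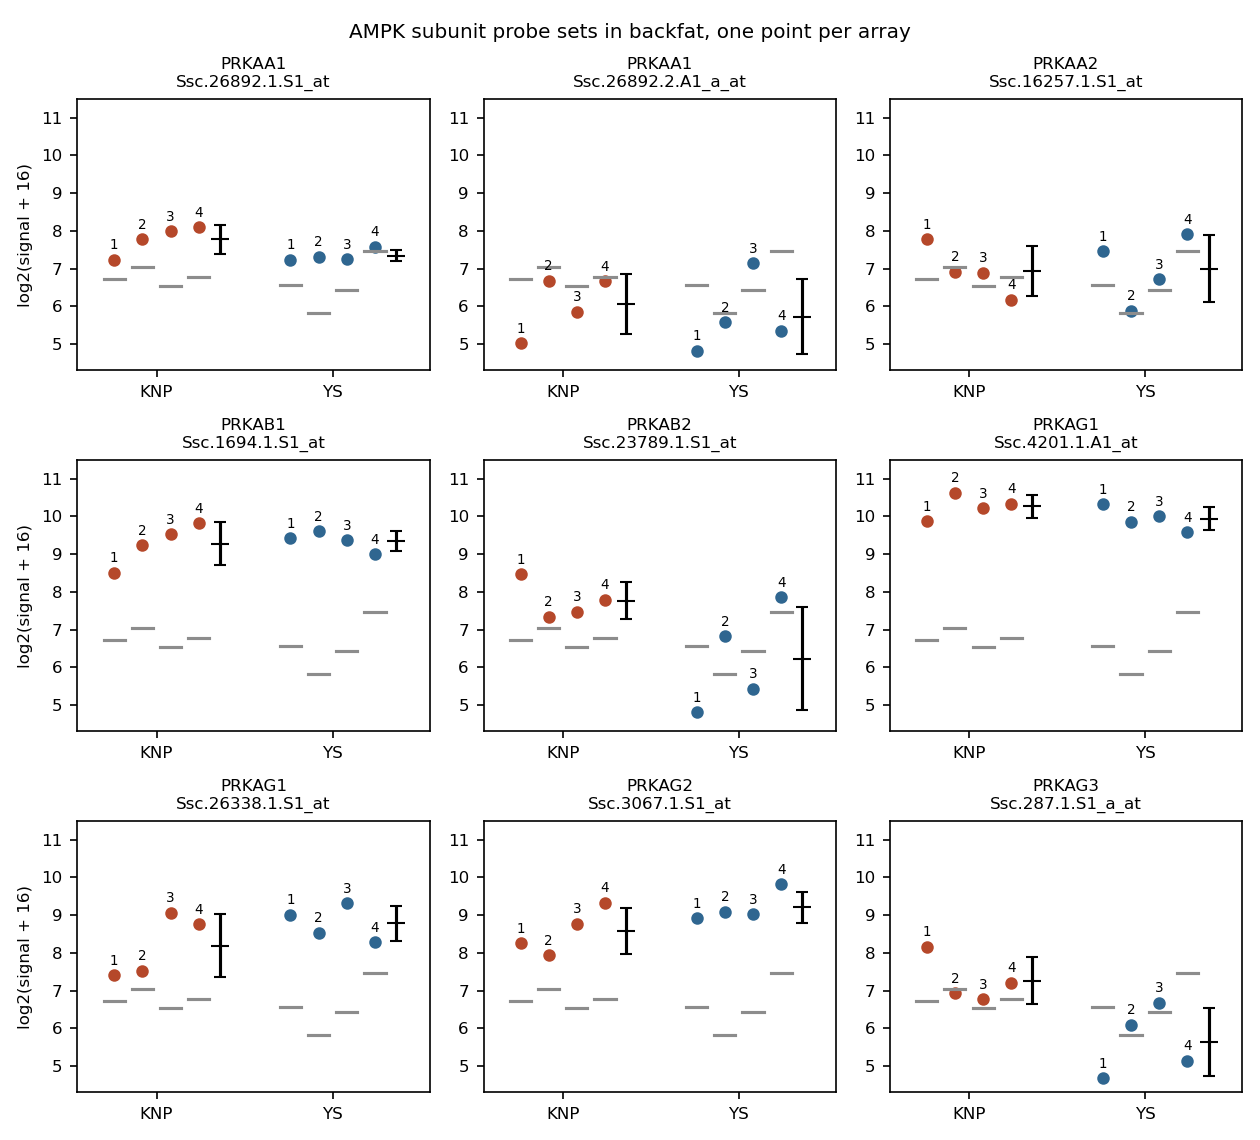
Each panel plots 1 AMPK probe set, with 1 point per array numbered by replicate, KNP left and YS right. The vertical axis is log2(signal + 16), the bars are the mean ± SD (n = 4), and the grey ticks mark the no-target level of each array. PRKAG1, PRKAG2, PRKAB1 and the brighter PRKAA1 probe set lie above the ticks on all arrays, while PRKAG3 and PRKAA2 lie among them. The dimmer PRKAA1 probe set lies below the tick on every array but YS replicate 3.

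The catalytic subunit comes from PRKAA1 or PRKAA2. PRKAA1, for alpha 1, was read by its brighter probe set at 134, 204, 238 and 258 on KNP replicates 1 to 4, against 135, 143, 137 and 175 on YS replicates 1 to 4. KNP replicates 2, 3 and 4 were above all YS arrays, and KNP replicate 1 lay at the level of the lowest YS arrays. The log2 signal averaged 7.77 ± 0.39 in KNP and 7.35 ± 0.16 in YS (± SD, 4 arrays each), a difference of 0.43 with a 95% interval from -0.17 to 1.03 (unadjusted p = 0.139 in limma). Without KNP replicates 1 and 2 and YS replicate 4 it was 0.77 ± 0.23 (SE; unadjusted p = 0.0151 and adjusted p = 0.509 in limma). The dimmer PRKAA1 probe set was too dim for the filter. Its signal ran from 16.6 to 86.6 in KNP, above the no-target level on 0 of 4 arrays, and from 12.4 to 125 in YS, above it on 1.

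PRKAA2, for the alpha 2 catalytic subunit, had signals of 204, 105, 102 and 56.4 on KNP replicates 1 to 4, against 161, 42.9, 89.4 and 225 on YS replicates 1 to 4. The groups overlapped over nearly their whole range, and the brightest array of each breed, KNP replicate 1 and YS replicate 4, was the one with the highest array median. The log2 signal averaged 6.94 ± 0.66 in KNP and 7.00 ± 0.89 in YS (± SD, 4 arrays each). The difference was -0.05, with a 95% interval from -1.16 to 1.06, wide enough to hold a change of about 2-fold either way (0.446 to 2.08 as KNP over YS). The no-target level was exceeded on 2 arrays in KNP and 4 in YS.

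The scaffolding subunit comes from PRKAB1 or PRKAB2, and neither gene passed the test. PRKAB1, for beta 1, had signals of 347, 589, 722 and 892 on KNP replicates 1 to 4, against 669, 763, 648 and 494 on YS replicates 1 to 4. All were well above the no-target level, the groups overlapped, and the lowest values were those of KNP replicate 1 and YS replicate 4. The log2 signal averaged 9.27 ± 0.57 in KNP and 9.35 ± 0.26 in YS (± SD, 4 arrays each), a difference of -0.07 with a 95% interval from -0.81 to 0.66. The sign was not stable: without KNP replicate 1 the difference was 0.18, without YS replicate 2 it was 0.012, and once adjusted for the 3'/5' difference it was 0.17.

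PRKAB2, for beta 2, had signals of 338, 147, 162 and 206 on KNP replicates 1 to 4, against 12.1, 97.8, 27.1 and 216 on YS replicates 1 to 4. All KNP arrays were above YS replicates 1, 2 and 3, and YS replicate 4 lay within the KNP range. All 4 KNP arrays exceeded the no-target level, and 2 YS arrays did, replicates 2 and 4. The log2 signal averaged 7.77 ± 0.50 in KNP and 6.23 ± 1.37 in YS (± SD, 4 arrays each), a difference of 1.54 ± 0.63 (SE; unadjusted p = 0.0358 and adjusted p = 0.99984 in limma). Leaving out 1 array at a time gave differences from 1.07, without YS replicate 1, to 2.08, without YS replicate 4. With a pseudocount of 64 in place of 16, which damps dim signals more, it was 1.01.

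The gamma subunits carry the sites that bind AMP, ADP and ATP. PRKAG1, for gamma 1, was read by 2 probe sets that went opposite ways. On the brighter one the signals were 923, 1571, 1179 and 1274 on KNP replicates 1 to 4, against 1267, 913, 1017 and 749 on YS replicates 1 to 4. On the dimmer one they were 154, 168, 519 and 419 on KNP replicates 1 to 4, against 499, 356, 625 and 297 on YS replicates 1 to 4. The breeds overlapped on both, and KNP replicate 2 was the highest of all 8 arrays on the brighter and among the 2 lowest on the dimmer. The differences, KNP minus YS, were 0.32 (95% interval -0.29 to 0.93) for the brighter and -0.60 (-1.59 to 0.39) for the dimmer. With 1 array left out the brighter ran from 0.20, without KNP replicate 2 or YS replicate 4, to 0.45, and the dimmer from -0.89 to -0.34, without KNP replicate 1, and was -0.38 without KNP replicate 2. Without KNP replicates 1 and 2 and YS replicate 4 the value for the dimmer was -0.044. Over the 8 arrays the 2 PRKAG1 probe sets had a Pearson r of -8.3e-05, as a description of arrays that share these library differences.

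PRKAG2, for gamma 2, had signals of 289.6, 229, 421 and 626 on KNP replicates 1 to 4, against 467, 530, 503 and 890.1 on YS replicates 1 to 4. KNP replicates 1, 2 and 3 were below all YS arrays and KNP replicate 4 lay within the YS range. The log2 signal averaged 8.57 ± 0.61 in KNP and 9.21 ± 0.41 in YS (± SD, 4 arrays each), a difference of -0.64 with a 95% interval from -1.46 to 0.18 (unadjusted p = 0.110 in limma). Without KNP replicates 1 and 2, its lowest arrays, and YS replicate 4, its highest, the difference was 0.041.

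PRKAG3, for gamma 3, was the AMPK probe set in which the breeds did not overlap. Its signals were 269.9, 105, 93.0 and 132 on KNP replicates 1 to 4, against 9.54, 52.2, 86.3 and 19.2 on YS replicates 1 to 4. Every KNP array was above every YS array, although KNP replicate 3 and YS replicate 3 were close. Such a separation with KNP above was found for 1.10% of all probe sets tested. The log2 signal averaged 7.26 ± 0.62 in KNP and 5.65 ± 0.91 in YS (± SD, 4 arrays each), a difference of 1.62 ± 0.49 (SE) with a 95% interval from 0.51 to 2.72. Its unadjusted p of 0.00896 ranked 70 among the 17999 probe sets, and its adjusted p in limma was 0.99984. It passed the filter through its KNP arrays. Its YS mean was below the overall mean of 5.89 of the dimmer PRKAA1 probe set, which the filter left out. In the fit without the filter its unadjusted p was 0.0101 and its adjusted p 0.999914 in limma.

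The PRKAG3 signal was near background. It exceeded the no-target level on 3 KNP arrays, replicates 1, 3 and 4, and on 2 YS arrays, replicates 2 and 3. Against the brightest no-target control of each array, a stricter level, it was above on 2 arrays of each breed. Its mean over all arrays stood at percentile 31.7 of the 23999 probe sets that are no controls. With 2 YS arrays below the no-target level no fold is given, since the size of the difference followed the pseudocount, at 2.13 with a pseudocount of 1 and 1.01 with a pseudocount of 64, while the unadjusted p stayed at 0.0127 and 0.00988.

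**Figure D2:**
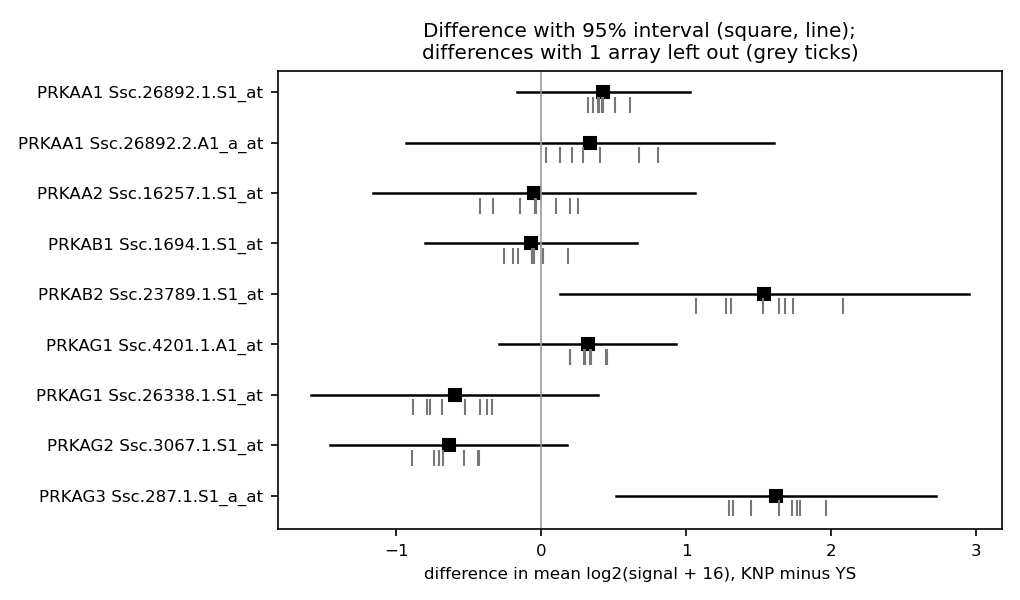
Squares give the difference in mean log2(signal + 16), KNP minus YS, for each AMPK probe set, lines its 95% interval from limma (n = 4 arrays per breed), and grey ticks the differences with 1 array left out. PRKAG3, at 1.62, and PRKAB2, at 1.54, lie right of 0 with every array left out in turn, while PRKAA2 and PRKAB1 change sign. For PRKAG3, whose breeds do not overlap, leaving out an array cannot change the sign.

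Because PRKAG3 is a gene of fast muscle fibres, its signal was set beside that of skeletal muscle genes on the same arrays. On KNP replicate 2, 24 of 24 muscle genes were above the no-target level, against 4 to 13 on the other KNP arrays and 8 to 16 on the YS arrays. The list's median, centred on each gene's mean, was 3.99 there, and -1.07 to -0.28 on the other 7 arrays. The 7 fast fibre genes summed to 58320 on KNP replicate 2, against 118 to 337 on the other KNP arrays and 206 to 470.0 in YS. The PRKAG3 signal on that array was 105, the second lowest of the 4 KNP values and below the no-target level of 115. Whether this probe set reads PRKAG3 RNA where muscle is present was not tested, nor was the part of muscle in the PRKAG3 difference. Without KNP replicate 2 the PRKAG3 difference was 1.73 ± 0.55 (SE; unadjusted p = 0.0136 and adjusted p = 0.999719 in limma), beside 1.62 with it. PRKAB2, a subunit also abundant in muscle, had its lowest KNP signal on that array, and its difference without it was 1.68.

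**Figure D3:**
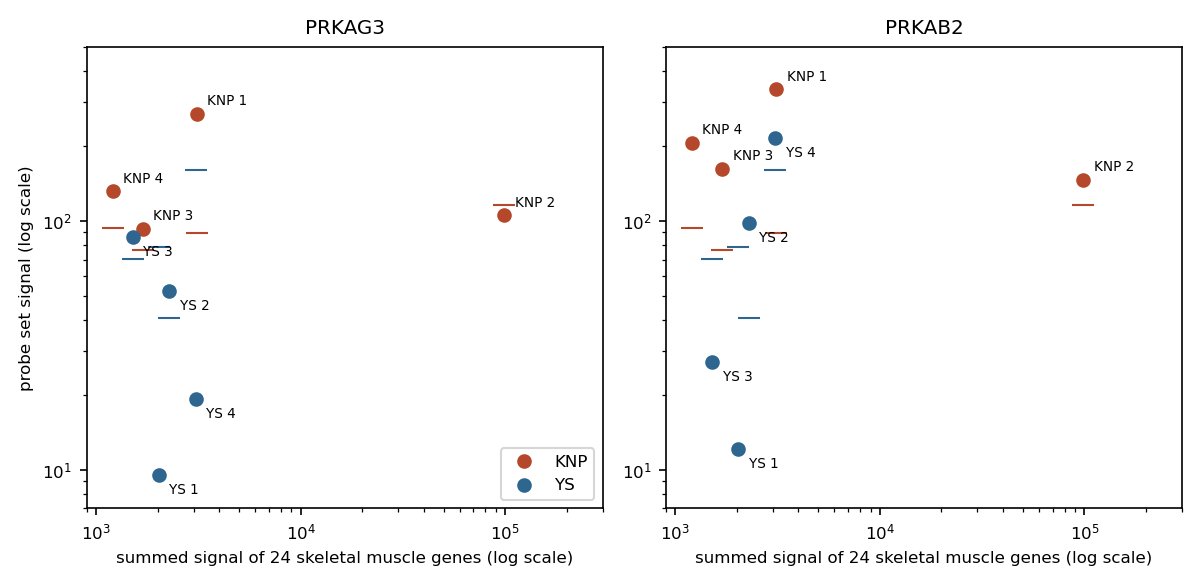
The summed signal of 24 skeletal muscle genes is on the horizontal axis and the signal of PRKAG3 (left) or PRKAB2 (right) on the vertical axis, both log scales, with 1 point per array and a tick of the same colour at the array's no-target level. KNP replicate 2 lies far to the right at 98970, while its PRKAG3 signal of 105 lies within the range of the other KNP arrays and its PRKAB2 signal of 147 is the lowest in KNP.

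With KNP replicate 2 apart from the rest, no correlation over all 8 arrays was computed. On the other 7 arrays only 4 to 16 of the 24 muscle genes exceeded the no-target level. Their centred median there ran only from -1.07 to -0.28, so a relation over these arrays cannot tell whether muscle content bears on a subunit. Over the other 7, PRKAG3 had a Pearson r of -0.21 with the muscle median (exact permutation p = 0.647, adjusted over the 9 AMPK probe sets 0.728) and a Spearman rho of -0.11 (exact permutation p = 0.840, adjusted 0.840). Without the 2 arrays farthest from the median, KNP replicate 4 and YS replicate 3, r was 0.15. Of the 9 probe sets 0 passed at an adjusted exact permutation p of 0.05. The strongest relation over the 7 arrays was a negative one, for the dim PRKAA1 probe set, with an r of -0.83 (exact permutation p = 0.0210, adjusted 0.189), and a rho of -0.79 (exact permutation p = 0.0480, adjusted 0.396). This probe set exceeded the no-target level only on YS replicate 3, and its r without the same 2 arrays was -0.66. For the brighter PRKAA1 probe set r was -0.72 over the 7 arrays (exact permutation p = 0.0665, adjusted 0.245). Without the same 2 arrays it was -0.92 (exact permutation p = 0.0417, adjusted 0.375).

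Some subunits varied with the 3'/5' difference, for which 9 relations were computed as well. The share of all probe sets that varied with it as strongly was not computed, so nothing particular to the subunits can be read from these relations. PRKAB1 was lower where the 3'/5' difference was larger, with a Pearson r of -0.90 over 8 arrays (exact permutation p = 0.00538, adjusted over the 9 probe sets 0.0242) and a Spearman rho of -0.83 (exact permutation p = 0.0154, adjusted 0.126). Without the 2 arrays farthest from the median, KNP replicates 1 and 2, r was -0.85 (exact permutation p = 0.0417, adjusted 0.188). The dimmer PRKAG1 probe set had an r of -0.896 (exact permutation p = 0.00243, adjusted 0.0219) and a rho of -0.79 (exact permutation p = 0.0279, adjusted 0.126). Without the same 2 arrays its r was -0.60 (exact permutation p = 0.203, adjusted 0.456), and without KNP replicate 2 alone it was -0.90 (exact permutation p = 0.0153, adjusted 0.0688), so the adjusted p passed only with all 8 arrays. For the brighter PRKAG1 probe set r was -0.18 over 8 arrays and -0.95 without the 2 (exact permutation p = 0.00694, adjusted 0.0625). PRKAG3 had an r of 0.50 (exact permutation p = 0.208, adjusted 0.312) and a rho of 0.17 (exact permutation p = 0.703), and r was -0.52 without the 2 arrays. Each breed has only 4 arrays, too few for a correlation within breeds. The PRKAG3 difference was 1.43 ± 0.50 (SE) once adjusted for the 3'/5' difference, and 1.17 ± 0.60 (SE; unadjusted p = 0.101 in limma) without KNP replicates 1 and 2 and YS replicate 4. Its highest signal, on KNP replicate 1, came from the array of largest 3'/5' difference, and the part of RNA quality in the difference was not tested beyond these values.

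**Figure D4:**
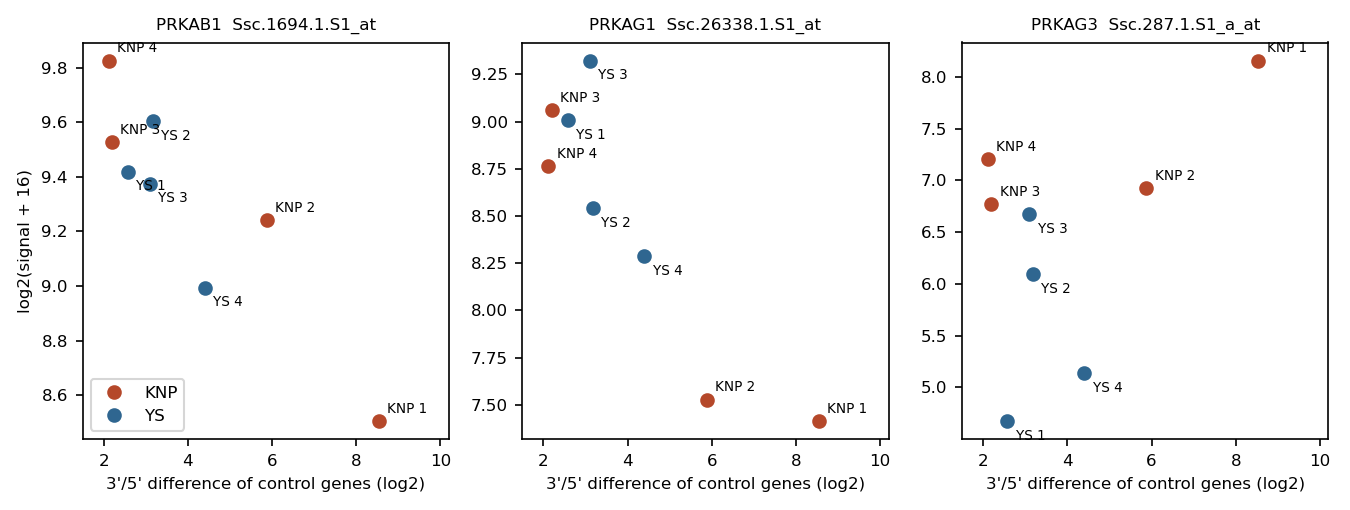
The horizontal axis is the 3'/5' difference (log2) and the vertical axes are log2(signal + 16) of PRKAB1, PRKAG1 (the dimmer probe set) and PRKAG3, 1 labelled point per array. PRKAB1 (r = -0.90) and PRKAG1 (r = -0.896) fall to the right, while for PRKAG3 the lowest KNP point, replicate 3, lies just above the highest YS point, replicate 3.

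Genes around the kinase were taken from 6 lists, each gene by its brightest probe set. Of 85 genes listed, 46 had a probe set with 1 symbol and 40 passed the filter, 22 of them higher in KNP, beside 49.9% of all probe sets, and 18 lower, beside 50.1%, with a median difference of 0.04. None passed an adjusted p of 0.05 in limma, and 1 (AMPD1) had an unadjusted p under 0.05, beside 2.84% of all probe sets. Without KNP replicates 1 and 2 and YS replicate 4, 13 of the 40 were higher. Over all probe sets the median difference in that setting was 0.045, and the share higher in KNP was not computed.

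Among kinases and regulators upstream of AMPK, 3 of 6 genes were higher and 3 lower, with a median of 0.03, or 2 higher and 4 lower with a median of -0.15 when probe sets were averaged per gene. STK11, which encodes the activating kinase LKB1, was at 8.31 ± 0.46 in KNP and 8.14 ± 0.35 in YS (log2 signal, SD, n = 4). STRADB, an LKB1 partner, was at 9.51 ± 0.32 in KNP and 9.38 ± 0.33 in YS. Dimmer probe sets had the opposite sign, with differences of -0.52 for STK11 and of -0.68 and -0.74 for STRADB. SESN1, a stress-induced sestrin that promotes AMPK activity, was at 12.24 ± 0.20 in KNP and 12.61 ± 0.25 in YS. PPP2CA, the catalytic subunit of the phosphatase PP2A, was at 10.97 ± 0.22 in KNP and 11.02 ± 0.26 in YS. In the adiponectin and leptin list, hormones and receptors that act on AMPK, 3 of 6 were higher and 3 lower, with a median of -0.03. Adiponectin itself (ADIPOQ) had signals of 156, 431, 5458 and 3122 on KNP replicates 1 to 4, against 4508, 2302, 3106 and 564 on YS replicates 1 to 4. Its 3 lowest arrays were those of largest 3'/5' difference, in both breeds. The receptor ADIPOR1 was at 9.23 ± 0.24 in KNP and 8.90 ± 0.49 in YS, its adaptor APPL1 at 7.64 ± 0.48 in KNP and 7.31 ± 0.98 in YS, and the adiponectin-binding cadherin CDH13 at 11.24 ± 0.14 in KNP and 11.40 ± 0.30 in YS.

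Of 7 kinases related to AMPK in sequence, 3 were higher and 4 lower, with a median of -0.18. MELK, a kinase of dividing cells, was at 5.69 ± 1.32 in KNP, above the no-target level on 1 array, and at 6.91 ± 0.73 in YS, above it on 3 (log2 signal, SD, n = 4). MARK1, a microtubule affinity regulating kinase, was at 10.66 ± 0.54 in KNP and 10.98 ± 0.26 in YS, and SIK3, a salt-inducible kinase, at 8.39 ± 0.39 in KNP and 8.63 ± 0.36 in YS. SNRK was at 8.97 ± 0.88 in KNP and 8.51 ± 0.54 in YS. Metabolic substrates and targets were higher in KNP for 5 of 9 genes and lower for 4, and their median difference was 0.17. That direction turned with probe sets averaged per gene (4 higher, median -0.11), without KNP replicate 2 (4 higher, median -0.014) and without KNP replicates 1 and 2 and YS replicate 4 (4 higher, median -0.037). TBC1D1, which restrains glucose transporter traffic until it is phosphorylated, was at 8.65 ± 0.70 in KNP and 9.20 ± 0.21 in YS. SREBF1, a regulator of lipid synthesis genes, was at 7.41 ± 0.57 in KNP and 7.01 ± 0.50 in YS. GPAM, which starts glycerolipid synthesis, was at 6.69 ± 0.99 in KNP and 7.31 ± 1.05 in YS, and the triglyceride lipase PNPLA2 was at 13.66 ± 0.45 in KNP and 13.35 ± 0.42 in YS.

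Growth and autophagy targets were higher in KNP for 5 of 6 genes, but by a median of 0.05, and the smallest unadjusted p was 0.639 in limma. With probe sets averaged per gene 3 were higher and 3 lower, and the other TSC1 probe set differed by -0.86. They included TSC2 and TSC1, brakes on mTORC1, at 8.06 ± 0.23 in KNP and 7.78 ± 1.44 in YS and at 6.77 ± 0.84 in KNP and 6.70 ± 1.13 in YS (log2 signal, SD, n = 4). The lipid kinase of autophagy PIK3C3 was at 9.37 ± 0.60 in KNP and 9.21 ± 0.15 in YS, and the transcription factor FOXO1 at 10.67 ± 0.24 in KNP and 10.65 ± 0.23 in YS. Without KNP replicates 1 and 2 and YS replicate 4, 1 of these 6 genes was higher. Over all probe sets the median difference in that setting was 0.045. Enzymes that set the adenylate and phosphocreatine pools were higher for 3 of 6 and lower for 3, with a median of -0.03, and both differences over 1 belonged to muscle genes. AMPD1, the AMP deaminase of skeletal muscle, had signals of 40.6, 836, 55.4 and 103 on KNP replicates 1 to 4, against 52.0, 3.34, 16.2 and 17.9 on YS replicates 1 to 4. It was above the no-target level on KNP replicates 2 and 4 and on 0 YS arrays, so its difference of 2.04 ± 0.81 (SE), or 1.18 ± 0.46 without KNP replicate 2, is not a measured size. Muscle creatine kinase (CKM) had 11960.0 on KNP replicate 2, and its difference of 1.56 ± 1.37 (SE) became -0.02 without that array. The mitochondrial creatine kinase CKMT2, above the no-target level on 1 array of each breed, stood at 5.99 ± 1.88 in KNP and 6.36 ± 0.62 in YS. Adenosine kinase (ADK), which turns adenosine into AMP, was at 7.68 ± 0.26 in KNP and 8.18 ± 0.45 in YS.

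**Figure D5:**
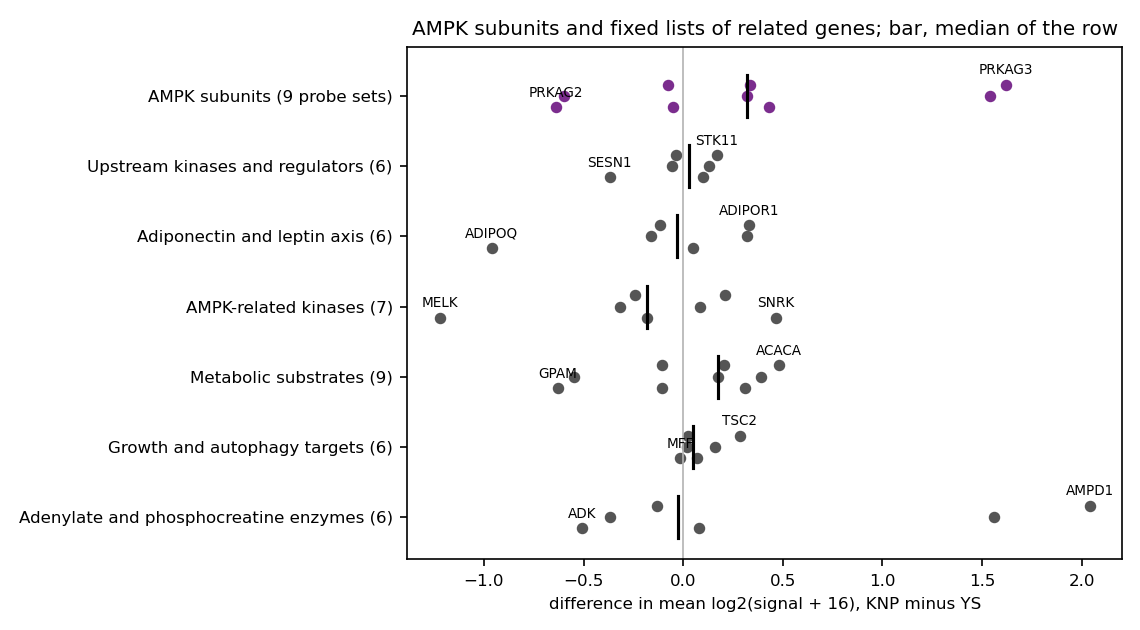
Each point is the difference in mean log2(signal + 16), KNP minus YS, of an AMPK probe set (top row) or of a gene in 1 of 6 lists, with the lowest and highest of each row named and a bar at the row's median. PRKAG3 (1.62) and PRKAB2 (1.54) lie right of all listed genes but AMPD1 (2.04) and, for PRKAB2, CKM (1.56), both of them brightest on KNP replicate 2.

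Likeness across the 8 arrays was described by Pearson's r among the single-symbol probe sets tested, for each subunit's brightest probe set. With only 8 points that share their RNA quality, some of these many probe sets will reach a high r. PRKAG3 was followed most closely by LOC100156657 (r = 0.93), LOC100739425 (0.92) and the immediate early response gene IER5 (0.92). For PRKAB2 these were the sialyltransferase ST6GAL1 (0.96), SCAF8 (0.95) and the serine protease PRSS8 (0.94). For PRKAA1 they were the nuclear receptor NR2F2 (0.96), the stress-induced factor ATF3 (0.94) and the mitochondrial ribosomal gene MRPL33 (0.93), and for PRKAA2 the MAX partner MXD4 (0.98), catalase (CAT, 0.94) and MRPL44 (0.94). PRKAB1 was closest to LOC100622859 (0.97), MFSD6 (0.97) and the sphingosine phosphate receptor S1PR1 (0.96). PRKAG1 was closest to protein kinase D2 (PRKD2, 0.96), the septin SEPT4 (0.94) and the splicing factor CWC22 (0.93), and PRKAG2 to the myosin MYO6 (0.98), the interferon-induced IFI44L (0.98) and PDE6D (0.96). Among the subunits themselves r ran from -0.80, between PRKAA2 and PRKAB1, to 0.69, between PRKAB1 and the dimmer PRKAG1 probe set. PRKAG3 and PRKAB2 had an r of 0.59.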

How the data were processed

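Values were those of the authors' deposited table, which holds 1 linear signal intensity per probe set and array, scaled by the authors to an equal trimmed mean, as read from the values. The labels give the array, biotin and the manufacturer's protocol, while the algorithm that summarised the probes is not named in them. The scaling was kept, and log2(signal + 16) was computed. The 124 control probe sets and the 25% of the other 23999 dimmest on average over the 8 arrays were dropped. A two-sided limma test (version 3.58.1, R 4.3.3, lmFit and eBayes) compared KNP with YS without covariates, and p-values of the 17999 probe sets left were adjusted by Benjamini and Hochberg. The test was tried on simulated data. Fold changes are on the log2(signal + 16) scale and understate the change of dim probe sets. Probe sets were named from the array's annotation in GEO. Array data carry no counts, so the number of arrays limits the precision. Correlations used exact permutation tests with numpy 2.4.6.

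The members, lists and tests were chosen with earlier results of these data known, and the relation to the 3'/5' difference and the omission of the 3 arrays after the files had been seen. Named were all AMPK probe sets, the 4 genes of smallest p in each of the 6 lists, the 3 genes most like each subunit, and the 3 brightest adipocyte genes, while muscle genes are given by their sums. Alternatives were pseudocounts of 1 and 64, no filter and one of 50%, median centring, quantile normalization, array weights, a trended robust variance (statmod 1.5.0), the 3'/5' difference as a covariate, replicate numbers as a block, a stricter background, an adjusted p of 0.10, averaging a gene's probe sets, and leaving out each array.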

Additional observations from a re-analysis of the deposited data

Results flagged for a closer look

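Within groups of 4 arrays, the gap between the most extreme array and its nearest neighbour was divided by the group's range and set against Dixon's 95% critical value, for the 9 AMPK probe sets and 2 marker lists in each breed, 22 groups in all. None of the AMPK probe sets exceeded it. The centred median of the skeletal muscle list did in KNP, where replicate 2 was far above the other 3 (ratio 0.844). The centred median of the adipocyte list did in KNP, where replicate 1 was lowest at -0.28 (ratio 0.907), and in YS, where replicate 4 was lowest at -0.43 (ratio 0.873). Chance puts about 1 group in 20 past this value. KNP replicate 1 and YS replicate 4 were also the arrays with the lowest PRKAB1 and the highest PRKAA2 signal of their breed. The part of the adipocyte genes in those subunit values was not tested.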

How the results depend on the processing

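The count of AMPK probe sets past an adjusted p of 0.05 was 0 in every setting tried, as was that of all probe sets, with a smallest adjusted p of 0.0596 over the array (trended robust variance), and a threshold of 0.10 gave 0 in the setting the report uses. At an unadjusted p under 0.05, all probe sets numbered 511 in limma, 877 with the 3'/5' covariate, 975 with array weights, 784 without KNP replicate 1, 884 without YS replicate 4 and 1516 without KNP replicates 1 and 2 and YS replicate 4, the 3 arrays whose 3'/5' difference was largest, and AMPK probe sets 0 (filter of 50%) to 3. PRKAG3 stayed higher in KNP in all 18 alternatives that held it, at 1.30 to 1.96 with 1 array left out and with adjusted p from 0.652 to 0.999997. As its breeds did not overlap, no omission of arrays, filter, pseudocount or weighting could turn its sign. The unchanged sign is therefore no further evidence for the difference. For PRKAB2 the unadjusted p ran from 0.00324 to 0.0969. The 50% filter removed PRKAG3, PRKAB2 and PRKAA2. Signs turned for PRKAA2 (0.10 with array weights, -0.43 to 0.25 with 1 array left out), for PRKAB1 (0.0082 with array weights, 0.17 with the covariate, 0.21 without the 3 arrays, -0.26 to 0.18 with 1 array left out) and for PRKAG2 (0.041 without the 3 arrays). The cause was not tested. Listed pathway genes higher in KNP numbered 22, 18 with probe sets averaged per gene, 19 without KNP replicate 2 and 13 without the 3 arrays. The median difference of all probe sets was 0.015 without KNP replicate 2 and 0.045 without the 3 arrays. The stricter background left 54 of the 58 AMPK signals above it, and the share of all probe sets above it was not computed. The replicate numbers showed no sign of pairing the samples (correlations of same-numbered deviations -0.17, 0.02, 0.13 and -0.19), though these values cannot exclude a pairing. With 1 array of each breed per number, a replicate block cannot change a difference, only its p. For PRKAG3, at 1.62, the block gave an unadjusted p of 0.0329 and an adjusted p of 0.999857 in limma. All counts of calls stayed at 0.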

Other observations

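Values outside the comparisons above, picked after they were seen, concerned muscle and forkhead genes of the lists. CKMT2 had signals of 12.3, 431, 21.9 and 18.3 on KNP replicates 1 to 4, against 66.4, 77.6, 29.8 and 113 on YS replicates 1 to 4. KNP replicate 2 and YS replicate 2 exceeded the no-target level and the other 6 arrays did not, so no difference is given without KNP replicate 2. A dimmer FOXO1 probe set was at 6.96 ± 0.39 in KNP and 5.63 ± 0.65 in YS (log2 signal, SD, n = 4) with an unadjusted p of 0.00568 in limma, while the brighter FOXO1 probe set differed by 0.02. The YS mean of the dimmer one lies in the range of the background, so no fold is given.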
